A study of Homo sapiens with 4 samples.

Results

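The genes described here are 10 genes of protein folding in the endoplasmic reticulum (ER) and of the unfolded protein response (UPR): HSPA5, HSP90B1, DNAJB9, PDIA4, SDF2L1, HERPUD1, CRELD2, MANF, XBP1 and HYOU1. They were taken by symbol from a table of 40205 genes, and all 10 were present and tested. The samples were labelled as SKOV3, an ovarian cancer cell line, cultured with fetal bovine serum, in a control group and in a group exposed to ginsenoside 20(S)-Rg3, a saponin of ginseng, at 80 µg/mL for 24 h. Each group had 2 libraries of ribosome-depleted total RNA. The labels name no vehicle for the control and call the RNA behind each library pooled. No label states that libraries within a group stem from different cultures, so each p-value reflects only library-to-library spread, possibly technical.

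The ER folds secreted and membrane proteins with the help of chaperones and of enzymes that form disulfide bonds. When unfolded proteins build up, the sensors IRE1 (encoded by ERN1), ATF6 and PERK (encoded by EIF2AK3) start the UPR. IRE1 splices the XBP1 mRNA so that it encodes an active transcription factor, ATF6 is cut in the Golgi into another, and PERK slows translation and favours ATF4. XBP1 and ATF6 raise chaperone and degradation genes, and for this reason HSPA5, DNAJB9, HERPUD1 and SDF2L1 serve as common readouts of the response. Gene counts cannot separate spliced from unspliced XBP1.

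The promoters of these genes are known for ER stress response elements, and the stretches that hold them are shown because they are the known binding sites of ATF6 and XBP1. The search covered the 250 bases before each annotated start in RefSeq (GRCh38.p14), on both strands, and all 10 genes had a promoter in that table (2 each for PDIA4 and XBP1). The ERSE, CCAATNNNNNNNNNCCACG, occurred in HSPA5, HSP90B1, CRELD2 and XBP1, which is 4 of 10 genes, and in 0.074% of 35114 promoters. The shorter ERSE-II, which is ATTGG, any base and then CCACG, occurred in HERPUD1, SDF2L1 and HYOU1, which is 3 of 10 genes, and in 0.0513% of promoters. Either element was found in 7 of the 10 genes and in 0.125% of all promoters. The UPRE, TGACGTGG, occurred in HYOU1 alone among the 10 genes and in 0.612% of promoters. Capitals mark the fixed bases of each element, and each stretch is written 5′ to 3′ in the direction of its gene.
HSPA5 (chr9:125241381-125241419, minus strand): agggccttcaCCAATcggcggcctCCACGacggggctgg
XBP1 (chr22:28800593-28800631, minus strand): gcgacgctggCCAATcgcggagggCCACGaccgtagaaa
CRELD2 (chr22:49918544-49918582, plus strand): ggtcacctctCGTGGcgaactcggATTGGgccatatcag
HERPUD1 (chr16:56932015-56932045, plus strand): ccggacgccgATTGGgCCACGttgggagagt
SDF2L1 (chr22:21642104-21642134, plus strand): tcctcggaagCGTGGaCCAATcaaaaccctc

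In HSPA5 and XBP1 the element read in the direction of the gene, while in CRELD2 and SDF2L1 it lay on the opposite strand. The HSPA5 element ran from base 66 to base 48 before the start, that of XBP1 from base 52 to base 34, and that of CRELD2 from base 80 to base 62. For XBP1 the match lay in 1 of its 2 promoters. HSP90B1 had 2 ERSE matches and HYOU1 had 2 ERSE-II matches, of which the one farther from the start overlapped the UPRE. The letters of these 3 elements were not found in the searched window of DNAJB9, PDIA4 or MANF. These matches describe the reference sequence and are not measurements of binding.

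**Figure D1:**
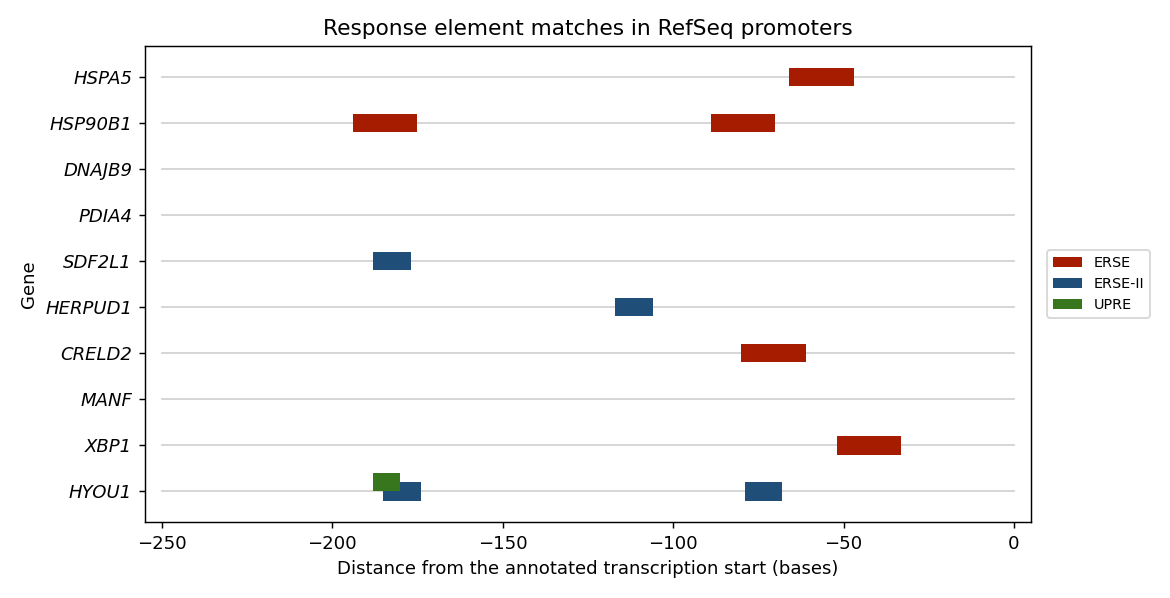
Position of ERSE, ERSE-II and UPRE matches in the 250 bases before the annotated start of each gene, with distance from the start in bases on the x axis and 1 row per gene. Matches lie in HSPA5, HSP90B1, SDF2L1, HERPUD1, CRELD2, XBP1 (1 of its 2 promoters) and HYOU1, and the rows of DNAJB9, PDIA4 and MANF are empty.

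The 4 libraries held between 24482846 and 30132517 counts. Levels are given in CPM, read counts scaled to a common library size with TMM. Of 8 markers of the cell line, the keratins KRT8 and KRT18 lay between 1557 and 2817 CPM and the receptor ERBB2 between 45.2 and 53.5 CPM. CDH1 and MUC16 lay between 0.623 and 2.43 CPM, PAX8 and WT1 at most at 0.681 CPM. EPCAM had 0 counts in each library, which allows at most 0.0996 to 0.123 CPM, so 5 of the 8 markers were under 3 CPM. The identity of the line rests on its label and was not tested further. Markers of blood and endothelium (PTPRC, CD3E, PECAM1 and VWF) summed to 0.454 and 0.893 CPM in controls and 0.332 and 0.779 CPM with Rg3. In bulk RNA fewer expressing cells and less RNA per cell cannot be told apart.

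After Rg3, 0 of the 10 genes passed the test as higher and 0 as lower. Calls were made with the quasi-likelihood test of edgeR at a Benjamini-Hochberg adjusted p under 0.05 over 16323 genes. Of all tested genes 0.0306% passed as higher and 0.00% as lower, so a count of 0 among 10 genes is near the background. DESeq2 also called 0 of the 10, with 0.260% of its tested genes called higher and 0.120% lower. Before adjustment, 1 of the 10 was higher at p under 0.05 and 0 were lower, beside 1.83% and 2.90% of all genes. The 0 of 10 also held in the other fits. Without a low-count filter 0.351% of all genes were called higher and 0.483% lower, and with the replicate block 0.423% and 0.527%. Leaving out Rg3 replicate 1 gave shares of 2.53% and 2.69%, and leaving out Rg3 replicate 2 gave 1.80% and 0.879%. These 2 fits had the largest shares, at which a count of 0 among 10 genes is still near the background. Leaving out control 1 gave 0.247% and 0.388%, and leaving out control 2 gave 0.184% and 0.107%. Scaling by RLE and limma voom gave 0.0306% and 0.00%, and upper-quartile scaling gave 0.0306% and 0.0123%. The median log2 fold change of the 10 genes was 0.060 and that of all tested genes was 0.014. Log2 fold changes above 0 were seen in 8 of the 10 genes, beside 52.5% of all tested genes. With upper-quartile scaling, which moved the median of all genes to −0.015, it was 6 of 10 genes and 47.1% of all genes. Leaving out control 1 gave 4 of 10 and leaving out Rg3 replicate 2 gave 5 of 10, beside 55.5% and 48.5% of all genes. Leaving out control 2 or Rg3 replicate 1 gave 9 of 10 each, beside 52.3% and 49.5% of all genes.

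DNAJB9 encodes an ER-resident J-domain co-chaperone, also called ERdj4, that works with HSPA5. Its raw counts were 58 and 80 in the control libraries, against 115 and 117 after Rg3. These counts correspond to 2.35 and 3.03 CPM in controls and to 3.73 and 4.86 CPM with Rg3. Both Rg3 libraries lay above both controls, the only such case among the 10 genes, and 0 genes lay below. Among all tested genes 15.3% had both Rg3 libraries above both controls and 17.0% had both below. The log2 fold change of DNAJB9 was 0.67 (SE 0.26), a 1.59-fold difference with a 95% interval of 1.04 to 2.44. With edgeR its unadjusted p was 0.037 and its adjusted p was 0.999. DNAJB9 had the fewest counts and the widest interval of the 10 genes. Without Rg3 replicate 1 the log2 fold change was 0.85, without Rg3 replicate 2 it was 0.47, without control 1 it was 0.51 and without control 2 it was 0.87.

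HSPA5 encodes BiP, the ER member of the HSP70 family that binds unfolded chains and holds the sensors inactive. It was at 262 and 330.2 CPM in the control libraries and at 415 and 319.7 CPM with Rg3. Rg3 replicate 1 was the highest of the 4 libraries, while Rg3 replicate 2 lay between the controls. The log2 fold change was 0.31 (SE 0.18), a 1.24-fold difference with a 95% interval of 0.922 to 1.67 (edgeR adjusted p = 0.999). Without Rg3 replicate 1 the log2 fold change was 0.12, and without Rg3 replicate 2 it was 0.49. Without control 1 it was 0.17 and without control 2 it was 0.49. Each of these left-out libraries moved the value by more than 1.5 times.

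HYOU1 encodes a large HSP70-related protein that exchanges nucleotide on HSPA5. Its levels were 192 and 211 CPM in controls and 218 and 203 CPM with Rg3, a narrow range in which the groups overlapped. The log2 fold change was 0.061 (SE 0.13), with a 95% interval of the fold of 0.839 to 1.30. SDF2L1 encodes a luminal protein that works with J-domain co-chaperones of HSPA5. It was at 19.0 and 17.6 CPM in the control libraries and at 20.1 and 14.9 CPM with Rg3. The Rg3 libraries held both its highest and its lowest value, and the log2 fold change was −0.060 (SE 0.19).

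HSP90B1 encodes GRP94, the ER member of the HSP90 family, which folds integrins and Toll-like receptors. It was at 610 and 705 CPM in the control libraries and at 536 and 730 CPM with Rg3. As for SDF2L1, the Rg3 libraries held the highest and the lowest value. The log2 fold change was −0.054 (SE 0.18). It was −0.29 when Rg3 replicate 2 was left out and 0.16 when replicate 1 was. Reads of its processed pseudogenes cannot be fully separated from it. Of these HSP90B2P was at 20.3 and 22.5 CPM in controls and 16.2 and 20.4 CPM with Rg3, and HSP90B3P lay between 6.04 and 8.93 CPM.

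PDIA4 encodes ERp72, a protein disulfide isomerase. It was at 367 and 420.0 CPM in the control libraries and at 381 and 438 CPM with Rg3. The groups overlapped, with replicate 2 the higher library in each, and the log2 fold change was 0.058 (SE 0.15). CRELD2 encodes a secreted ER-stress-inducible protein with EGF-like domains. It was at 45.0 and 56.0 CPM in controls and 49.2 and 52.4 CPM with Rg3, so both Rg3 values lay between the controls. Its log2 fold change was 0.0076 (SE 0.15).

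MANF encodes a small ER protein that is secreted on stress and was first described as a neurotrophic factor. It was at 73.3 and 93.7 CPM in the control libraries and at 78.6 and 101 CPM with Rg3, with a log2 fold change of 0.10 (SE 0.18). HERPUD1 encodes an ER membrane protein with a ubiquitin-like domain that takes part in ER-associated degradation. It was at 18.6 and 23.7 CPM in the control libraries and at 21.2 and 24.7 CPM with Rg3, with a log2 fold change of 0.12 (SE 0.18). In both genes the lowest library was control 1 and the highest was Rg3 replicate 2, and the groups overlapped. XBP1, the transcription factor, was at 212 and 252 CPM in the control libraries and at 212 and 255 CPM with Rg3. Its values were nearly the same pair in each group, with a log2 fold change of 0.012 (SE 0.16) and a 95% interval of the fold of 0.780 to 1.30.

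**Figure D2:**
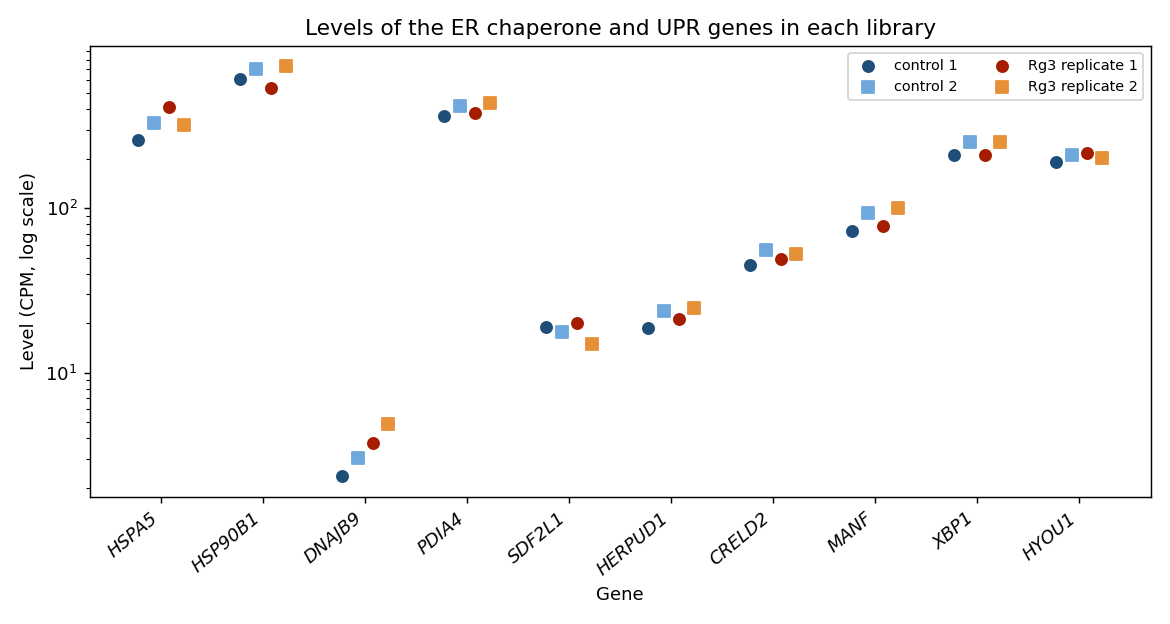
Level of each gene in each library in CPM on a log axis, with controls in blue and Rg3 libraries in red and orange. In 9 of the 10 genes the groups overlap, and in DNAJB9 both Rg3 libraries (3.73 and 4.86 CPM) lie above both controls.

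The spread between replicates set what could be seen. The 95% interval lay below a 2-fold rise in 9 of the 10 genes, DNAJB9 being the exception, and above a 2-fold fall in 10 of 10. It lay below a 1.5-fold rise in 8 of 10, with HSPA5 and DNAJB9 the exceptions, and above a 1.5-fold fall in 10 of 10. These intervals are for single genes and are not adjusted for the number of genes.

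**Figure D3:**
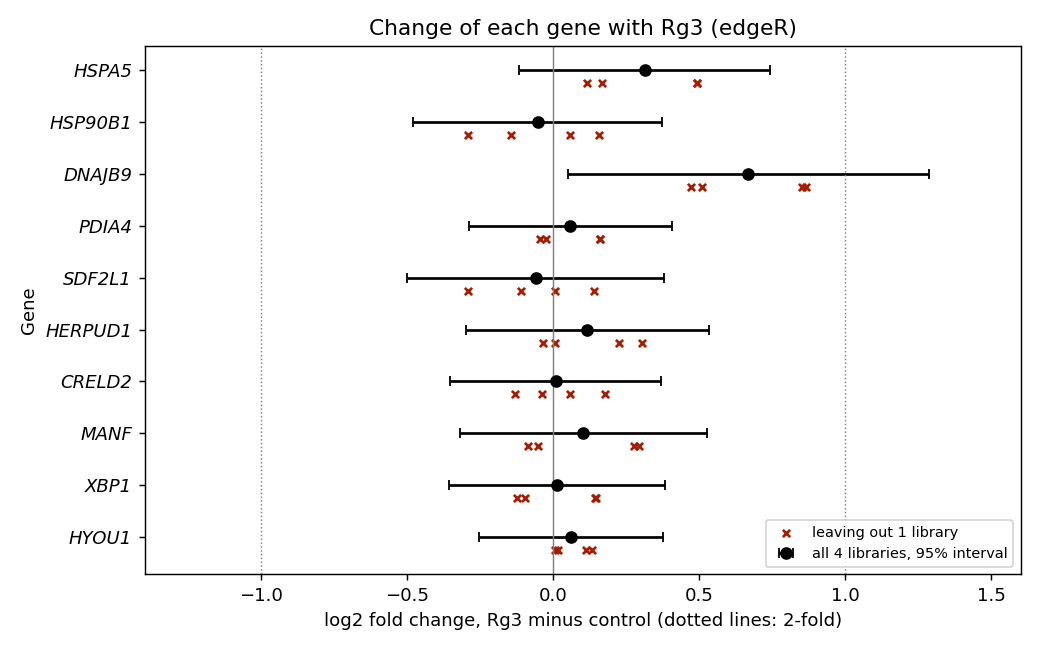
Log2 fold change of each gene with Rg3 relative to control (x axis, edgeR), with the 95% interval in black and the values from the 4 fits that each left out 1 library as red crosses. Only the interval of DNAJB9 lies wholly above 0, and it is the only one that reaches past the dotted line of a 2-fold rise.

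The controls differed from each other over most of these genes. Control 2 was above control 1 in 9 of the 10 genes, with a median log2 difference of 0.28, whereas over all tested genes the median was −0.0018. Rg3 replicate 2 was above Rg3 replicate 1 in 7 of the 10, beside 51.1% of all tested genes, with a median log2 difference of 0.21. In 9 of the 10 genes the log2 fold change with Rg3 was smaller in size than the log2 difference between the controls, and DNAJB9 was the exception. The fold change compares groups of 2 libraries and the control difference compares single libraries, which vary more. A smaller fold change is therefore common without any effect, and the share over all tested genes was not computed. Relative to control 1, 9 of the 10 genes were higher in each Rg3 library, with HSP90B1 lower in replicate 1 and SDF2L1 lower in replicate 2. The median log2 differences were 0.11 and 0.26, beside −0.0030 and 0.00075 over all tested genes. Relative to control 2, 4 of the 10 were higher in Rg3 replicate 1 and 6 of the 10 in Rg3 replicate 2. The medians were −0.15 and 0.035, beside −0.0080 and −0.0037 over all tested genes. Without control 1 the median log2 fold change of the 10 genes was −0.031, and without control 2 it was 0.17. Leaving out Rg3 replicate 1 gave 0.15, and leaving out Rg3 replicate 2 gave −0.017. The sign of the median thus depended on which library was left out. The 10 genes summed to 1800.3 and 2112 CPM in controls and to 1936 and 2144 CPM with Rg3, so the groups overlapped in the sum as well.

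**Figure D4:**
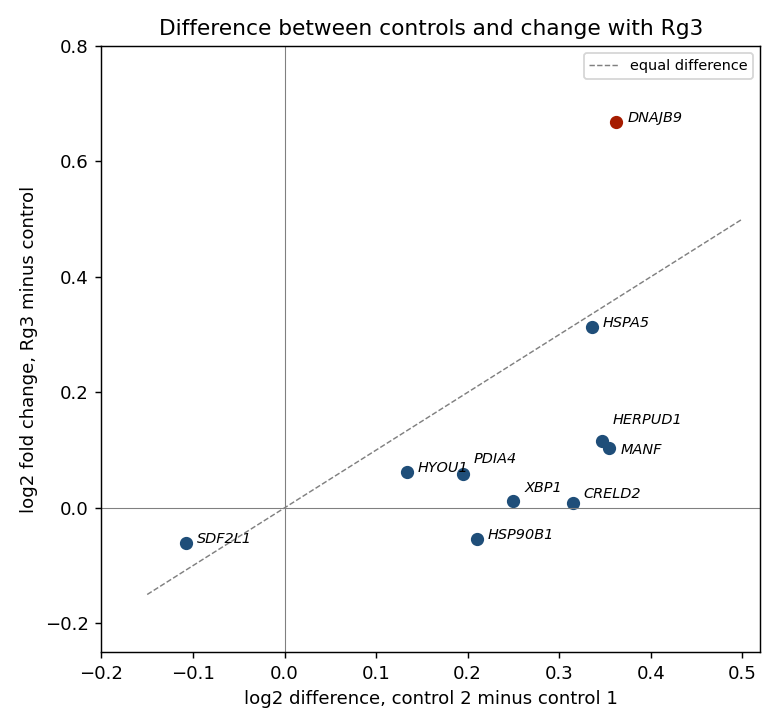
Log2 fold change with Rg3 (y axis) against the log2 difference between the 2 controls (x axis) for each gene, with a dashed line of equal difference and the gene whose groups do not overlap in red. DNAJB9 lies far above the line at 0.67, and HSPA5 lies just below it at 0.31.

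Other genes of the ER folding pathway were read from 6 further lists with 87 genes, of which 86 were tested. Of these 86, 0 passed as higher and 0 as lower with edgeR. Before adjustment, 2 were higher and 2 lower at p under 0.05, beside 1.83% and 2.90% of all tested genes. Log2 fold changes above 0 were seen in 63 of the 86, with a median of 0.13, beside 52.5% of all tested genes. Without Rg3 replicate 2 this was 42 of the 86, beside 48.5% of all genes, and the median was −0.0037. It was 56 without control 1 (median 0.077), 73 without control 2 (median 0.15) and 66 without Rg3 replicate 1 (median 0.16). The shares of all genes in those fits were 55.5%, 52.3% and 49.5%. Control 2 was above control 1 in 65 of the 86, and in 5 of the 12 genes of the PERK arm, beside 49.7% of all tested genes. Whether the direction with Rg3 went with the direction between the controls gene by gene was not tested.

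Among 21 other folding genes 14 had a log2 fold change above 0, with a median of 0.092. The lectin chaperones CALR and CANX, which hold glycoproteins until they are folded, had values of −0.10 (SE 0.17) and 0.12 (SE 0.17) on the log2 fold change scale. The disulfide isomerase PDIA6 had 0.075 (SE 0.16), and the co-chaperones DNAJB11 and DNAJC3 had 0.26 (SE 0.17) and 0.15 (SE 0.16). Leaving out Rg3 replicate 1 put DNAJB11 at 0.44, where it was called (edgeR adjusted p = 0.037), and leaving out Rg3 replicate 2 put it at 0.057. The highest value was that of TXNDC5, a disulfide isomerase, at 105 and 115 CPM in controls and 137 and 139.5 CPM with Rg3. Both of its Rg3 libraries lay above both controls, with a log2 fold change of 0.33 (SE 0.13, edgeR adjusted p = 0.999). The lowest was that of ERP29, a thioredoxin-fold protein of the ER, at 60.9 and 58.9 CPM in controls and 52.3 and 42.3 CPM with Rg3. Its log2 fold change was −0.34 (SE 0.15, edgeR adjusted p = 0.999). It was −0.50 and called in the fit lacking Rg3 replicate 1 (edgeR adjusted p = 0.023), and −0.19 in the fit lacking replicate 2.

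Of 18 genes of ER-associated degradation 13 were above 0, with a median of 0.14. SEL1L and SYVN1, the adaptor and the ubiquitin ligase of the retrotranslocation complex, were at 0.16 (SE 0.13) and 0.24 (SE 0.25) on the same scale. SYVN1 was at 16.1 and 15.1 CPM in the control libraries and at 23.0 and 13.7 CPM with Rg3, and its log2 fold change was −0.19 in the fit lacking Rg3 replicate 1. In the fit lacking Rg3 replicate 2 it was 0.56 and called (edgeR adjusted p = 0.036). EDEM1, a mannosidase-like protein that marks misfolded glycoproteins, had 0.15 (SE 0.14). The highest and lowest genes at 10 CPM or more were VIMP (now SELENOS) at 0.29 (SE 0.19) and EDEM2 at −0.20 (SE 0.14). VIMP was at 0.49 and called when Rg3 replicate 1 was left out (edgeR adjusted p = 0.042), and at 0.059 when replicate 2 was.

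Of 21 genes of translocation and early secretory transport 17 were above 0, with a median of 0.13 and values from −0.081 for SEC24D, a coat protein of ER exit sites, to 0.25 for SEC61B. Over the 4 fits that left out 1 library SEC61B ran from 0.030 without Rg3 replicate 2 to 0.45 without Rg3 replicate 1. SEC61B and SEC61A1 are subunits of the channel through which new chains enter the ER, and SEC61A1 had 0.15 (SE 0.14). Among 9 sensors and processing proteases 5 were above 0, with a median of 0.015. ERN1 was at 12.1 and 13.6 CPM in controls and 12.7 and 9.63 CPM with Rg3. Its log2 fold change of −0.20 (SE 0.20) was the lowest of this list at 10 CPM or more. It was −0.41 in the absence of Rg3 replicate 1 and −0.018 in the absence of replicate 2. ATF6 had 0.015 (SE 0.14) and EIF2AK3 had 0.18 (SE 0.16). The highest was MBTPS2, the site-2 protease that releases both ATF6 and SREBP from the membrane, at 0.25 (SE 0.16). Leaving out Rg3 replicate 1 or 2 moved EIF2AK3 to 0.30 or 0.062 and MBTPS2 to 0.10 or 0.38.

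**Figure D5:**
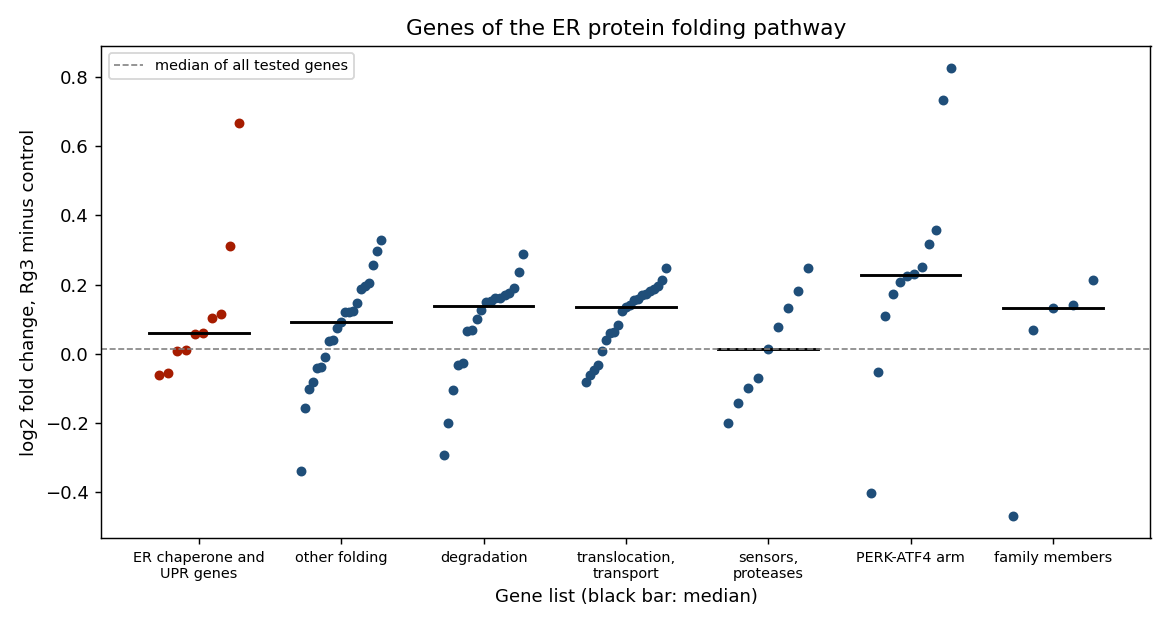
Log2 fold change with Rg3 of every tested gene in the 10 genes (red) and in the 6 further lists (blue), with the median of each list as a black bar and the median of all tested genes as a dashed line. Most points lie between −0.2 and 0.3, and DNAJB9 (0.67) and DDIT3 (0.82) stand at the top of their lists.

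In the PERK arm, the gene of CHOP, DDIT3, was measured at 25.9 and 22.3 CPM without the compound and at 45.2 and 40.1 CPM after it. CHOP is a transcription factor that can promote cell death under lasting ER stress. Both Rg3 libraries lay far above both controls, with a log2 fold change of 0.82 (SE 0.15, edgeR adjusted p = 0.36). DESeq2 called it at an adjusted p of 0.01315. Over the alternatives that kept all 4 libraries, its adjusted p ran from 8.964e-04 (edgeR, unfiltered) to 0.4163 (limma voom). When 1 library was left out, the log2 fold change of DDIT3 ran from 0.72 (no control 2) to 0.95 (no control 1). ATF4 was at 206 and 216 CPM in the control libraries and at 227.6 and 227.8 CPM with Rg3. This gave a log2 fold change of 0.11 (SE 0.13). The lowest of this list was DDIT4, an inhibitor of mTORC1 signalling, at 494 and 459 CPM in controls and 409.9 and 311 CPM with Rg3 (log2 fold change −0.40, SE 0.17). DDIT4 stood at −0.61 and was called when Rg3 replicate 1 was left out (edgeR adjusted p = 0.011), and it stood at −0.22 when replicate 2 was. Of the 12 genes of this arm 10 were above 0, with a median of 0.23, and Rg3 replicate 2 was above Rg3 replicate 1 in 2 of the 12. Whether the difference of DDIT3 exceeds that of HSPA5 was not tested.

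Family members of the 10 genes gave a comparison of proteins of like structure. CRELD1, the relative of CRELD2, was at 21.4 and 25.4 CPM in the control libraries and at 17.0 and 16.8 CPM with Rg3. Both Rg3 libraries lay below both controls, with a log2 fold change of −0.47 (SE 0.16, edgeR adjusted p = 0.97). SDF2, the relative of SDF2L1, had 0.069 (SE 0.18), and HERPUD2, the relative of HERPUD1, had 0.21 (SE 0.18). The cytosolic chaperones HSPA8 and HSP90AB1 had 0.14 (SE 0.19) and 0.13 (SE 0.15). HSPA8 was at 0.38 and called when Rg3 replicate 1 was left out (edgeR adjusted p = 0.047), and at −0.13 when replicate 2 was. CDNF, the relative of MANF, was below the count filter and was not tested. In the promoter search 0 of these 6 family members had an ERSE, an ERSE-II or a UPRE.

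The pattern over the 4 libraries most like the mean of the 10 genes was sought among 8758 other genes with a mean of at least 10 CPM. Likeness was the Euclidean distance between log2 CPM values centred on each gene. The mean of the 10 genes lay at −0.18 in control 1, 0.059 in control 2, 0.0079 in Rg3 replicate 1 and 0.11 in Rg3 replicate 2. Control 1 was thus the low library, and the other libraries lay close together. Among the 5 nearest genes were ARL2BP, HMGN2, RAB5B and HADH, at distances of 0.036 to 0.044. In ARL2BP, for example, control 1 stood at 31.2 CPM, control 2 at 35.9 CPM and the Rg3 libraries at 34.5 and 37.9 CPM.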

How the data were processed

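Total RNA of SKOV3 cells was depleted of ribosomal RNA and sequenced, per the labels' protocols. Which of the 2 sequencing instruments named in the labels was used is not settled. The deposited table holds raw counts per gene symbol, which the authors had not normalised, with 1 column per library. The genome build was GRCh37, per the submitters' processing notes. The aligner, the counter, the annotation and the strand setting are not given in the sources used here, so reads of overlapping genes such as HYOU1-AS1 or MIR3652 (within HSP90B1) may be counted with the host gene.

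Groups came from the treatment label. The analysis used edgeR 4.0.16 under R 4.3.3: filterByExpr (minimum count 10, minimum total 15) kept 16323 of 40205 genes, libraries were scaled by TMM, and glmQLFTest was fitted with treatment as the only term (2 residual degrees of freedom). Standard errors came from the F statistic and 95% intervals from the t distribution. Its degrees of freedom were the residual ones plus those that edgeR borrowed across genes (median 5.47). The test was checked on simulated data, where it missed most of the smallest changes put in and made some false calls. A permutation of 2 against 2 libraries cannot give a two-sided p below 0.333 and was not used. Alternatives were RLE and upper-quartile scaling, no low-count filter, DESeq2 1.42.0, limma voom 3.58.1, the replicate number as a block, and leaving out each library. Depth limits low genes such as DNAJB9 most, where counting error adds to the spread.

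The 10 genes and the lists were chosen with earlier results of these data known. The text names the 10 genes, 20 genes of the further lists whatever their values, the highest and lowest gene of each list at a mean of 10 CPM or more, and the 5 genes nearest in pattern, of which 1 is not reported here.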

Additional observations from a re-analysis of the deposited data

How the results depend on the processing

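Of the 10 genes 0 were called in either direction in each alternative that kept all 4 libraries. Their median log2 fold change ran from −0.031 to 0.17 over the 10 alternatives. It was below 0 without control 1 and without Rg3 replicate 2, so its sign was not stable. The numbers of genes called over the whole table moved. With edgeR 5 were higher and 0 lower, with upper-quartile scaling 2 were lower, without a low-count filter 90 and 124, with DESeq2 37 and 17, and with the replicate block 69 and 86. Among the 86 pathway genes, with all 4 libraries kept, DESeq2, the fit without a filter and the replicate block each called 1 higher, DDIT3. In the fits that left out 1 library, the log2 fold change of DDIT3 stayed between 0.72 and 0.95. Leaving out 1 library gave 31 to 428 genes higher and 18 to 456 lower, and 0 to 6 pathway genes higher and 0 to 2 lower. The most calls came without Rg3 replicate 1. In each such fit the lone library of a group is assumed to vary like the other group, and the cause was not tested. The smallest adjusted p of any of the 10 genes was 0.0772, for HSPA5 without Rg3 replicate 2.

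Same-numbered libraries share only a number. The correlation of their deviations from the group means was 0.149 over 16323 genes, and the replicate block moved the calls to 69 and 86 while the log2 fold change of HSPA5 was 0.31 and that of DNAJB9 0.67.

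The sign turned with upper-quartile scaling for CRELD2 (−0.021), XBP1 (−0.016) and ATF6 (−0.013), as that scaling moved the median of all genes from 0.014 to −0.015. It turned in at least 1 fit without a library for the following genes, given with their lowest and highest log2 fold change in those fits: PDIA4 (−0.044 to 0.16), SDF2L1 (−0.29 to 0.14), HERPUD1 (−0.037 to 0.30), CRELD2 (−0.13 to 0.18), MANF (−0.086 to 0.29), XBP1 (−0.12 to 0.14), ATF6 (−0.096 to 0.12), RAB5B (−0.017 to 0.26), HSP90B1 (−0.29 to 0.16), CALR (−0.26 to 0.048), SEC24D (−0.20 to 0.064), SYVN1 (−0.19 to 0.56), CANX (−0.068 to 0.29), PDIA6 (−0.095 to 0.23), DNAJC3 (−0.0015 to 0.29), SDF2 (−0.15 to 0.27), HSPA8 (−0.13 to 0.38) and HSP90AB1 (−0.016 to 0.27). Depth and the 2 libraries a group limit what the values near 0 can show.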
